A study of Homo sapiens with 16 samples.

Results

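The regions described here were bound by p65 in HT29 mock and in SW480 ERβ cells and in neither of the other 2 groups, and they numbered 514 of the 6238 regions bound in any group (8.24%). They were chosen by the p65 signal itself. The genome was read in bins of 200 bp on chromosomes 1 to 22 and X. A bin was bound in a group when at least 2 of the 3 ChIP libraries had a mean signal of at least 2, 4 or more times the input of the group (taken as no less than 0.35) and 4 or more times the local mean, over 10 kb around the bin. Bound bins within 200 bp of each other were joined over groups. Signal is the coverage per base that the authors scaled to a common total, and unless stated otherwise it was read at the peak bin, the bound bin with the highest mean over the groups.

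HT29 and SW480 are colorectal adenocarcinoma lines. Each was stably transfected with ERβ or with the empty vector (mock), and the labels do not say whether a line is 1 clone or a pool. The 4 groups of 3 libraries, HT29 mock, HT29 ERβ, SW480 mock and SW480 ERβ, were all from cells given TNFα at 30 ng/ml for 30 min, after a day in medium without phenol red and with charcoal-stripped serum and with no estradiol added. Chromatin was fixed with DSG and formaldehyde, and each group had 1 input library. Cells without TNFα were not among the libraries analysed. The methods list ERβ inputs of both lines under another series, while the labels of the inputs used here do not name one. In the coding exons of ESR2, which encodes ERβ, the signal was 3.89 to 6.87 times that of its introns in the HT29 ERβ libraries and 2.25 to 2.80 times in SW480 ERβ, and 1.10 to 1.36 and 1.25 to 1.56 times in the mock libraries of HT29 and SW480.

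p65, encoded by RELA, is the NFκB subunit that carries a strong activation domain. In resting cells it is held in the cytoplasm by IκB proteins, and TNFα leads to the degradation of IκB, after which dimers of p65 and p50 enter the nucleus and bind κB sites at promoters and enhancers of inflammatory and survival genes. ERβ is a nuclear receptor that colon epithelium expresses and that these lines lack or hold at low level, and estrogen receptors are known to alter NFκB signaling.

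An exact match to the κB consensus stood within the peak bin or 100 bp to either side of it in 381 of the 514 regions (74.1%). The first sequences below belong to the regions with the largest differences in both lines (CKAP4 to KLF11). The others belong to genes that the study names for this pattern (CLOCK, CXCL10) and to regions of the highest signal (SLC9A8, HIP1, HAAO). Capitals mark the κB match nearest the centre of the peak bin, read 5′ to 3′ on the strand named, from hg38 (GRCh38).
CKAP4: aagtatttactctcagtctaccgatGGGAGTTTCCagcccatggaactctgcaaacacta
PSME1: ctggcgtggaGGGGAACTCCgctggcctgg
INO80C: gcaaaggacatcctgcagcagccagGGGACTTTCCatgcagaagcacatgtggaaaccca
BASP1: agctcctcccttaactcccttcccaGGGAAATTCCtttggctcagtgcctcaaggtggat
KLF11: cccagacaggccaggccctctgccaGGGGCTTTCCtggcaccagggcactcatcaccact
CLOCK: cgggagggcgGGGGTTCCCCggaggagctg
CXCL10: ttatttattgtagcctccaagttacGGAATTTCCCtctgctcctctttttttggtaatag
SLC9A8: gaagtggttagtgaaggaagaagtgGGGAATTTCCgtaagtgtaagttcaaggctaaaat
HIP1: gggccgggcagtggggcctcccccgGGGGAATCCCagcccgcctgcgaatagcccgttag
HAAO: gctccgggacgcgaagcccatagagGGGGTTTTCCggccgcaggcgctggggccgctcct

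The CKAP4 sequence is at chr12:106274937-106274996 (plus strand), the PSME1 sequence at chr14:24136517-24136546 (plus strand), the INO80C sequence at chr18:35458995-35459054 (minus strand), the BASP1 sequence at chr5:17097065-17097124 (plus strand) and the KLF11 sequence at chr2:10036199-10036258 (minus strand). The CLOCK sequence is at chr4:55546052-55546081 (plus strand) and the CXCL10 sequence at chr4:76023640-76023699 (plus strand). Those named for SLC9A8, HIP1 and HAAO are at chr20:49823721-49823780 (plus strand), chr7:75739451-75739510 (plus strand) and chr2:42810208-42810267 (plus strand). A region is named by the gene of the nearest protein-coding transcript start, which does not show that the gene is regulated from it. The κB matches differed from region to region, with 75 different sequences among the members. None was in more than 26 of them (5.06%).

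At the members the p65 signal was lower in HT29 ERβ than in HT29 mock and higher in SW480 ERβ than in SW480 mock, as the choice would lead to. The methods call the replicates biological, while the labels do not say what was separate between them, and all errors and p-values given here cover the spread between these libraries. All 16 tracks had nearly the same total area, so the sequencing depth cannot be read from them. The study lists mapped reads per library, which were not used here. The median signals of HT29 mock replicates 1, 2 and 3 were 4.28, 2.39 and 2.46, and those of HT29 ERβ 3.61, 1.73 and 1.68. In SW480 mock they were 1.42, 1.81 and 2.02, and in SW480 ERβ 2.40, 4.67 and 4.23. Replicate 1 was the highest library of both HT29 groups and the lowest of both SW480 groups. The HT29 groups overlapped, since replicate 1 of HT29 ERβ lay above replicates 2 and 3 of HT29 mock. The choice was rerun with 1 library left out, where a group with 2 libraries left had to pass in both. By that rule the number falls when the library is of a bound group and rises when it is of an unbound group. The size of the change differed between libraries. Without HT29 mock replicate 1, 2 or 3 there were 226, 398 or 353 members. Without SW480 ERβ replicate 1, 2 or 3 there were 507, 276 or 281. Without HT29 ERβ replicate 1, 2 or 3 there were 770, 652 or 628.

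**Figure D1:**
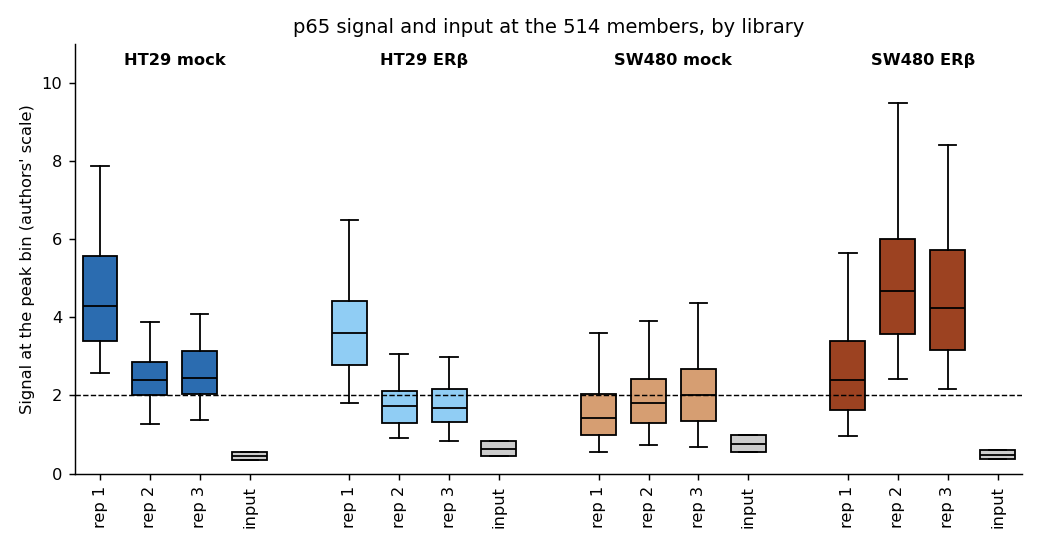
p65 signal at the peak bin of the 514 members in each of the 12 ChIP libraries, with the 4 inputs in grey. Boxes span the quartiles with the median as a line, whiskers of the ChIP libraries reach the 5th and 95th percentiles, and the dashed line is the signal minimum of 2. Median signals run from 1.42 in SW480 mock replicate 1 to 4.67 in SW480 ERβ replicate 2, and replicate 1 of HT29 ERβ (3.61) stands above replicates 2 and 3 of HT29 mock.

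On the scale of log2(signal + 1), the median difference of the group means, ERβ minus mock, was -0.31 in HT29 and 0.74 in SW480. The ratio of mean signals had a median of 0.759 in HT29 and 2.14 in SW480. Over all 6238 bound regions the same differences had medians of -0.15 and 0.71. The members were thus further below 0 than bound regions in general in HT29 and close to them in SW480. The authors' scaling to a common total bears on this. With the libraries scaled to an equal median at the regions bound in all 4 groups, the median over all regions moved to 0.01 in HT29 and 0.10 in SW480, and that of the members chosen on this scale was -0.16 and 0.29. In HT29 491 members were lower with ERβ and 23 higher, and in SW480 511 were higher and 3 lower. Of all 6238 regions 4821 were lower in HT29 and 6092 higher in SW480. Each HT29 library moved the HT29 median by over 1.5 times. It was -0.15 without HT29 mock replicate 1, where the median of all regions was 0.02, -0.46 without mock replicate 2 or 3, -0.54 without ERβ replicate 1, -0.19 without ERβ replicate 2 and -0.17 without ERβ replicate 3. These values chose the members and are given as a description.

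With the 3 replicates as the measure of error, no region was called in HT29 (limma over the 12 libraries, Benjamini-Hochberg adjusted p under 0.05). That is 0% of 6238 in each direction and 0 of 514 members. At an unadjusted p under 0.05, 95 of the 6238 regions were lower and 4 higher with ERβ, among them 13 and 0 of the 514 members. A missing call does not show that the groups were alike. In SW480 2977 regions were higher with ERβ (47.7%) and 0 lower (0%), and 230 of the members were higher (44.7%). At an unadjusted p under 0.05, 3589 were higher and 0 lower. The number called at the adjusted threshold was 1587 without SW480 ERβ replicate 2, 1715 without SW480 ERβ replicate 3 and 1720 without SW480 mock replicate 1. In the same order 83, 89 and 92 members were higher (16.1%, 17.3% and 17.9%), beside 25.4%, 27.5% and 27.6% of all regions. Without SW480 ERβ replicate 1, 385 members were higher (74.9%), beside 71.4% of all regions. With the libraries scaled at the regions bound in all 4 groups 826 regions were higher (13.2%) and 73 lower (1.17%). Of the members 57 were higher (11.1%) and 1 lower (0.195%). With the replicate number as a block, which the correlations between same-numbered libraries allow, 4818 regions (77.2%) and 441 members (85.8%) were higher in SW480, 3 regions were lower there, and 0 regions (0%) were lower in HT29. At an unadjusted p under 0.05 that fit had 647 lower and 21 higher in HT29. As the rule used both contrasts, the members' counts stand beside the shares of all regions as a description only.

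Counted by library, all 3 HT29 ERβ libraries lay below all 3 HT29 mock libraries at 18 members (3.50%), beside 3.88% of all regions. Same-numbered libraries were ordered that way in all 3 pairs at 311 members (60.5%), beside 35.8%. In SW480 all 3 ERβ libraries lay above all 3 mock libraries at 279 members (54.3%), beside 53.5%, and all 3 pairs were ordered so at 437 members (85.0%), beside 78.5%. The libraries of both lines were apart at 11 members (2.14%), beside 147 of all regions (2.36%), and these members lay nearest to LSM6, N4BP3, ZYX, ORM1, PPIF, POU2AF1, RASA3, CYBA, ASPSCR1, INO80C and SERPIND1. The rule used these libraries, so the members' shares are a description only. The list of 11 members was drawn after the values were seen.

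To read the differences in libraries that had not chosen the regions, the members were chosen again from 2 replicate numbers, bound in both libraries of a group, and read in the third. In HT29 the median difference was -0.20 in replicate 1 (409 members), -0.20 in replicate 2 (335 members) and -0.25 in replicate 3 (283 members). All bound regions of the same choices had medians of -0.17, -0.13 and -0.21. In SW480 the medians were 0.46, 1.04 and 0.85 at the members and 0.42, 0.97 and 0.78 over all regions. The direction was the same in each library left out, and it was also that of the bound regions in general. Lower values in HT29 ERβ were found at 70.4% to 81.6% of the members so chosen, beside 65.8% to 74.7% of all bound regions of the same choices. Higher values in SW480 ERβ were found at 86.3% to 100% of these members, beside 82.3% to 97.4% of all.

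**Figure D2:**
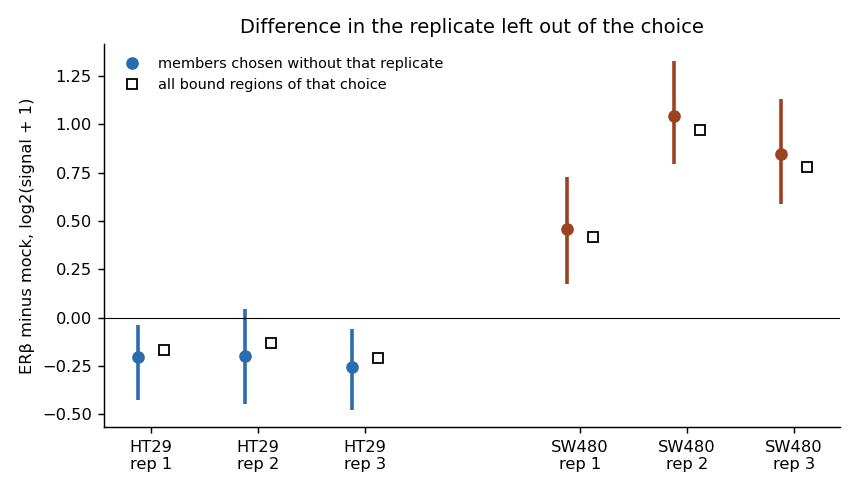
ERβ minus mock in the replicate number left out of the choice, on the scale of log2(signal + 1). Circles are medians over the members chosen from the other 2 replicates, bars their quartiles, and open squares the medians of all bound regions of that choice. All 3 medians are negative in HT29 (-0.25 to -0.20) and positive in SW480 (0.46 to 1.04), and each open square lies beside its circle.

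Absence from the bound set did not mean absence of signal. In HT29 ERβ, 406 members passed every limit in replicate 1, 5 in replicate 2 and 4 in replicate 3, so that 415 of the 514 were bound in a single library and 99 in none. In SW480 mock, 9, 35 and 67 members passed in replicates 1, 2 and 3, and 406 passed in none, 105 in a single library and 3 in 2 libraries at different bins. The signal minimum of 2 was reached at the peak bin by 139, 219 and 261 members in the SW480 mock libraries and by 471, 155 and 156 in the HT29 ERβ libraries. Among members the limit missed most often was the excess over input, which 493, 466 and 432 members missed in SW480 mock and 438 and 445 in replicates 2 and 3 of HT29 ERβ. It was the only limit missed at 88, 147 and 139 members in SW480 mock and at 106 and 104 in those HT29 ERβ replicates.

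The input libraries moved with the choice. The study lists ERβ inputs under another series, which the labels do not say. If the ERβ inputs came from it, ERβ status and the series cannot be told apart in the inputs. Median input signals at the members were 0.450 in HT29 mock, 0.630 in HT29 ERβ, 0.763 in SW480 mock and 0.479 in SW480 ERβ, so that 4 times the median input was 1.80, 2.52, 3.05 and 1.92. The input of both unbound groups was above that of the other group of its line at 353 members (68.7%), and at 49.3% of all bound regions. When each group was set against the other input of its line, 260 regions met the rule and 180 of the 514 members (35.0%) overlapped them. With the mean of both inputs of a line the number was 324, and 290 of the 514 members (56.4%) overlapped these regions. With no limit on input the number was 375, and 282 members (54.9%) overlapped them. With the libraries scaled to an equal median at the 572 regions bound in all 4 groups the number was 189, of which 144 members of the original 514 (28.0%) were part.

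**Figure D3:**
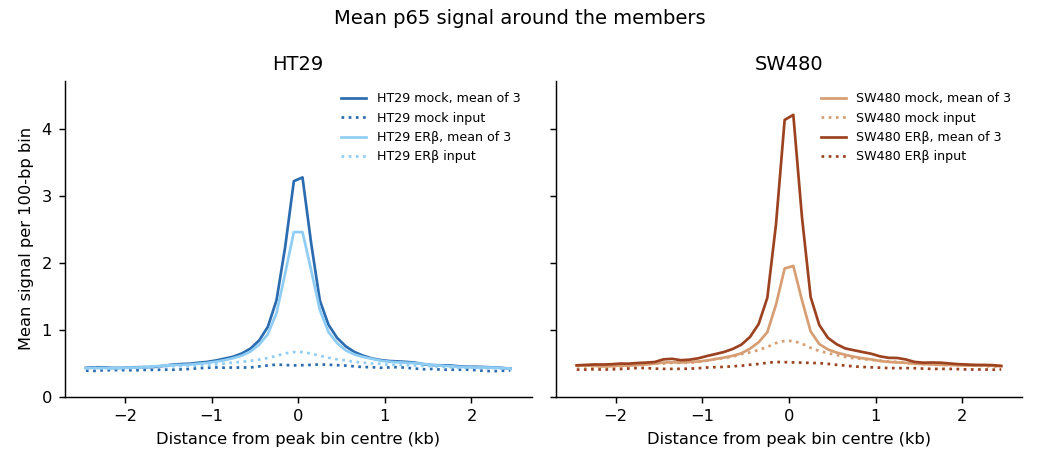
Mean signal in bins of 100 bp around the peak bin centres of the 514 members, by distance in kb, for the mean of the 3 ChIP libraries of each group (full lines) and for its input (dotted lines). The ChIP lines of the unbound groups, HT29 ERβ and SW480 mock, also rise at the centre, and all 4 inputs have a low rise there, with median input signals at the peak bin of 0.450 in HT29 mock, 0.630 in HT29 ERβ, 0.763 in SW480 mock and 0.479 in SW480 ERβ.

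Members were found at promoters more often than bound regions in general. In promoters, taken as the stretch reaching 1 kb upstream and 100 bp downstream of protein-coding transcript starts, lay 191 members (37.2%, 95% Clopper-Pearson interval 33.0 to 41.5). The share was 21.1% of all bound regions (20.1 to 22.1). Regions bound in all 4 groups had 30.9% (27.2 to 34.9), an interval that overlaps that of members. Those missing in SW480 mock only had 27.1% (23.4 to 31.0), those in SW480 ERβ alone 19.4% and those in HT29 mock alone 12.6%. A further 165 members were in introns, 27 in exons and 131 between genes. The median distance to a transcript start was 996 bp for members, 4041 bp for regions bound in all 4 groups, 7056 bp for those missing in SW480 mock only and 12096 bp for all regions, and the median GC content of their 400-bp windows was 61.3% for members, 58.3% for regions bound in all 4 groups and 54.8% for all. The input went with place as well. At promoter members the median HT29 ERβ and SW480 mock inputs were 0.760 and 0.883, and at the other members 0.569 and 0.697. With the other input of each line, 63 of the 260 regions were at promoters (24.2%, beside 18.8% of all regions). With no limit on input 135 of 375 were (36.0%, beside 20.7%).

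κB matches were in 74.1% of members (70.1 to 77.9), beside 66.1% of all bound regions (64.9 to 67.3), 83.4% of those bound in all 4 groups and 5.80% of 400-bp windows of the genome. In windows 2 kb to either side of the members the share was 9.05%. Within promoters members and all regions had like shares, 67.0% (59.9 to 73.6) and 67.4% (64.8 to 70.0). Away from promoters the share was 78.3% of 323 members (73.4 to 82.7) and 65.8% of all 4924 regions (64.4 to 67.1). 136 members held 2 or more matches (26.5%), beside 24.1% of all regions, 30.9% of those missing in SW480 mock only and 36.9% of those bound in all 4 groups. The median distance of the nearest match from the peak bin centre was 45 bp.

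Among the motifs of other factors, those of AP-1 and RUNX were less common in members than in all regions. Those of ETS and SP/KLF factors were more common. The NFAT and TEAD motifs were also less common, in 10.7% and 6.23% of members beside 14.1% and 9.38% of all regions. The AP-1 motif (TGACTCA or TGAGTCA), bound by FOS and JUN dimers, was in 12.5% of members and 18.2% of all regions, and 5.96% of genome windows. Away from promoters it was in 16.1% (12.3 to 20.6) and 21.1% (19.9 to 22.2), where the intervals overlap. Within promoters it was in 6.28% (3.29 to 10.7) of members and 7.69% of all regions. The RUNX motif (TGTGGTC or TGTGGTT) was in 8.56% of members, 17.7% of all regions, 22.1% of regions bound in SW480 ERβ alone and 12.1% of genome windows. Away from promoters it was in 11.1% (7.93 to 15.1) of members and 20.4% (19.3 to 21.6) of all regions, and within promoters in 4.19% (1.83 to 8.09) and 7.31% (5.96 to 8.85), where the intervals overlap. Members resembled in this respect the regions bound in HT29 mock alone (7.18%) and those missing in SW480 mock only (9.32%). The ETS motif (CCGGAAG) was in 11.3% of members and 7.26% of all regions, and the SP/KLF motif (GGGGCGGGG) in 13.6% and 9.01%. Regions bound in all 4 groups held the SP/KLF motif at 16.6%. Within promoters ETS and SP/KLF were at 18.8% and 24.1% of members and 15.1% and 24.4% of all regions. Away from promoters ETS was at 6.81% (4.32 to 10.1) of members and 5.16% of all regions, and SP/KLF at 7.43% (4.82 to 10.9) and 4.91%. The genome shares were 0.929% and 0.559%. An exact full estrogen response element was in 0 members, where the exact interval reaches 0.715%, and a single arm of it (AGGTCA) was in 113 members, a share with an interval of 18.5% to 25.8% beside 23.5% of genome windows. All motifs were searched on both strands, and ETS and κB matches can share bases.

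**Figure D4:**
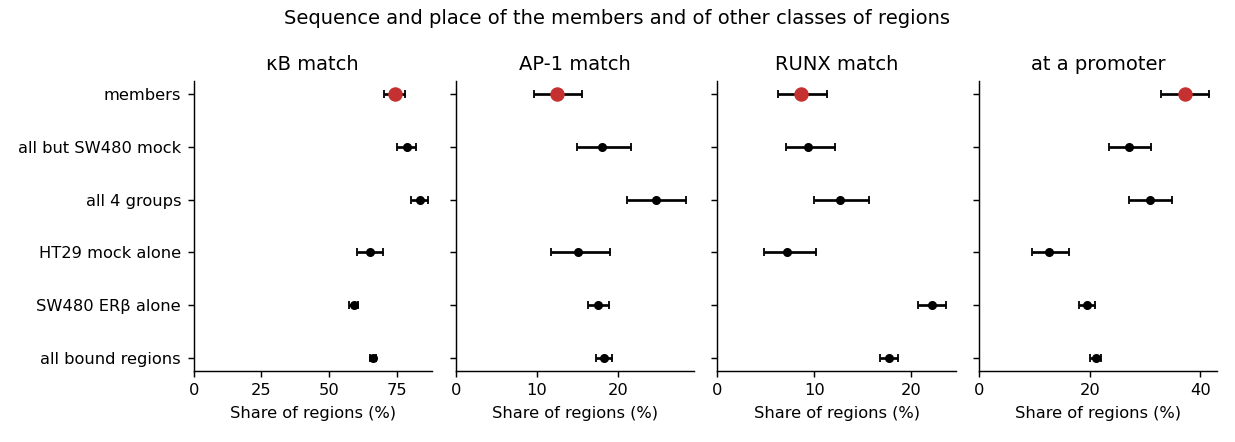
Share of regions, in percent with 95% Clopper-Pearson intervals, that hold a κB, AP-1 or RUNX match in 400 bp or lie at a promoter, for the members (red) and other classes of regions. The members stand at 74.1%, 12.5%, 8.56% and 37.2%, and all bound regions at 66.1%, 18.2%, 17.7% and 21.1%.

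The regions with the largest differences in both lines were ranked by the lower of 2 differences of group means on the log2 scale. These were HT29 mock minus HT29 ERβ and SW480 ERβ minus SW480 mock. The regions were chosen by these values, which are given with no test. The first (chr12:106274801-106275200) was in an intron of the annotated gene of CKAP4, a membrane protein of the endoplasmic reticulum, and 26881 bp upstream of its nearest protein-coding transcript start. The HT29 mock libraries had signals of 7.51, 4.22 and 3.33 there, HT29 ERβ 4.46, 1.63 and 1.22, SW480 mock 1.10, 1.35 and 1.95, and SW480 ERβ 2.10, 5.55 and 5.52. The HT29 groups overlapped by replicate 1 of HT29 ERβ alone, and the SW480 groups were apart. Its inputs were 0.400, 0.280, 0.459 and 0.450 in HT29 mock, HT29 ERβ, SW480 mock and SW480 ERβ, so here the HT29 ERβ input was the lowest.

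PSME1 encodes a subunit of the proteasome activator that interferon induces, and its region lay 274 bp downstream of a transcript start (chr14:24136201-24136600). Signals were 3.62, 2.54 and 2.41 in HT29 mock, 1.88, 0.897 and 0.998 in HT29 ERβ, 1.57, 1.01 and 1.43 in SW480 mock, and 1.22, 4.78 and 4.70 in SW480 ERβ. The HT29 groups did not overlap, while SW480 ERβ replicate 1 stood within the SW480 mock range. INO80C encodes a subunit of the INO80 chromatin remodeler, and its intronic region (chr18:35458801-35459200) held a κB and an AP-1 match. Signals were 3.66, 2.80 and 3.82 in HT29 mock, 2.78, 1.24 and 1.08 in HT29 ERβ, 1.38, 1.40 and 1.61 in SW480 mock, and 2.63, 5.38 and 5.08 in SW480 ERβ. Both lines were without overlap there, in HT29 by a narrow gap between replicate 2 of mock and replicate 1 of ERβ.

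The intronic BASP1 region (chr5:17097001-17097400) had 8.62, 3.96 and 5.40 in HT29 mock and 5.09, 2.67 and 2.05 in HT29 ERβ. In SW480 mock it had 0.896, 0.899 and 1.29 and in SW480 ERβ 3.98, 4.83 and 5.75, so the SW480 groups were far apart and the HT29 groups overlapped. KLF11 encodes a transcription factor of the TGF-β response, and its region 6548 bp upstream (chr2:10036001-10036400) had mean signals of 3.17, 1.75, 1.65 and 4.92 in HT29 mock, HT29 ERβ, SW480 mock and SW480 ERβ. Its lowest library was HT29 ERβ replicate 3, at 0.535.

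IRF1, a transcription factor that TNFα and interferons induce, had a member 634 bp upstream (chr5:132497001-132497400) without a κB match in the window. Signals were 6.50, 3.72 and 4.09 in HT29 mock, 4.22, 1.62 and 2.03 in HT29 ERβ, 3.05, 3.30 and 4.87 in SW480 mock, and 9.36, 9.17 and 12.6 in SW480 ERβ. All 3 SW480 mock libraries stood above the signal minimum, and the region was not bound there because 1 of them passed the other limits.

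**Figure D5:**
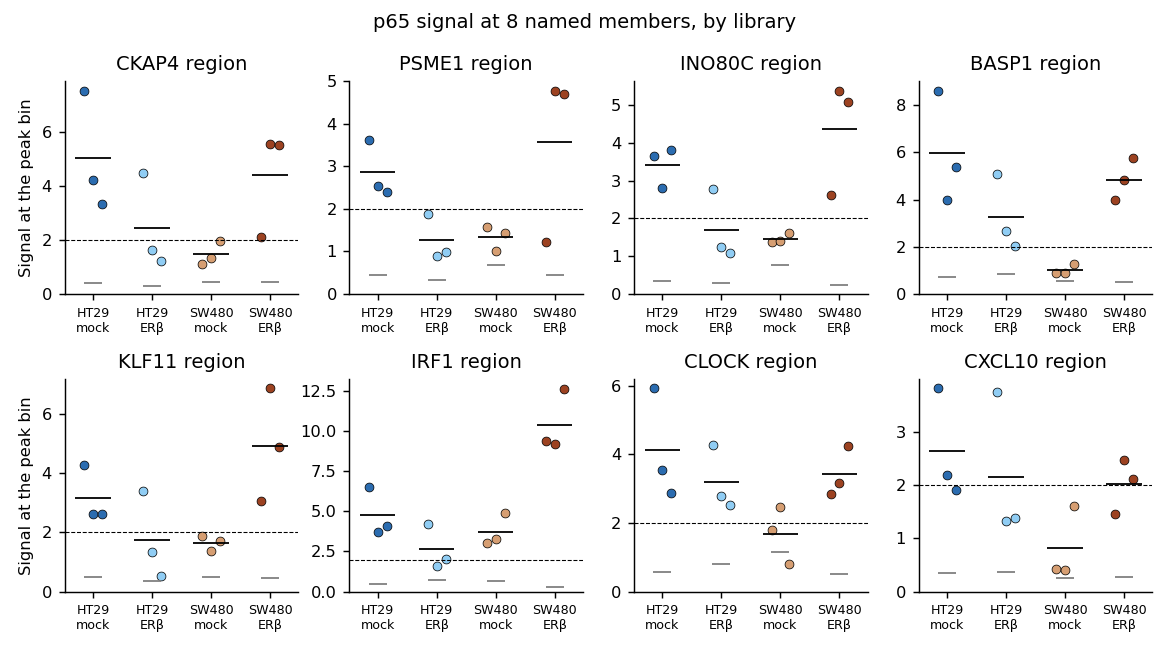
p65 signal at the peak bin of 8 members, the 6 with the largest differences in both lines and those of CLOCK and CXCL10. Points are the libraries with replicates 1, 2 and 3 from left to right, black bars the means of 3, grey dashes the inputs and the dashed line the minimum of 2. At the CKAP4 region HT29 mock lies at 3.33 to 7.51 and HT29 ERβ at 1.22 to 4.46, and at the IRF1 region SW480 ERβ lies at 9.17 to 12.6.

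The members of highest signal in both bound groups were led by an intronic region of SMAD6, an inhibitor of BMP signaling (chr15:66765801-66766200). Its signals were 12.4, 5.42 and 6.33 in HT29 mock, 11.2, 4.87 and 2.24 in HT29 ERβ, 1.28, 1.78 and 2.96 in SW480 mock, and 6.41, 8.34 and 7.94 in SW480 ERβ. The HT29 libraries were thus intermixed, and replicate 1 of both HT29 groups stood apart. The second was in an intron of SLC9A8, a sodium and proton exchanger, where the HT29 ERβ mean (7.53 ± 4.51, SD, n = 3) was above the HT29 mock mean (6.85 ± 3.63). The region was listed as unbound in HT29 ERβ, where the input was 1.25, beside 0.760 in HT29 mock.

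At the promoter of NAMPT, the enzyme of NAD salvage, the means were 5.46 ± 2.12 in HT29 mock, 3.86 ± 2.11 in HT29 ERβ, 2.87 ± 0.825 in SW480 mock and 8.16 ± 1.44 in SW480 ERβ (SD, n = 3). Inputs there were 0.340, 1.21, 0.934 and 0.400, so that both unbound groups had the higher input. At the promoter of PAK1, a kinase downstream of RAC and CDC42, the means were 6.62 ± 2.35, 4.33 ± 2.17, 4.66 ± 1.21 and 7.77 ± 3.48 in the same order. The promoter region of BRD9, a subunit of a SWI/SNF complex, had 5.51 ± 1.76, 3.38 ± 1.19, 4.22 ± 1.42 and 6.50 ± 2.74. In both the SW480 mock mean was above the signal minimum by more than 2 units.

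Further regions of this set were nearest to MYEOV, PPTC7, RNF34 (in an exon of KDM2B), RAB5IF, HIP1 and HAAO. Their HT29 mock means were 5.41 to 5.98 and their SW480 ERβ means 5.59 to 9.13. The means in the unbound groups were 3.62 to 4.61 in HT29 ERβ and 2.30 to 3.93 in SW480 mock. The RAB5IF promoter had the highest input of the 12, 2.46 in SW480 mock.

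Genes of inflammation, survival, adhesion and the clock were examined as 11 lists. Within 50 kb upstream or 2 kb downstream of a start of transcription, 147 of the 283 list genes in the annotation had a bound region, and 21 of these had a member (14.3%), beside 742 of 5042 protein-coding genes with a region (14.7%). Members thus stood near list genes about as often as near other bound genes. The cell death and survival list had 5 of 15, namely BCL10, PMAIP1, CFLAR, FADD and XIAP, and adhesion and migration 4 of 21, namely ITGB6, LAMA3, LAMB3 and ZYX. NFκB subunits and inhibitors had 2 of 15 (TNIP2 and CYLD), chemokines and cytokines 2 of 24 (CXCL9 and CXCL10), interferon response 2 of 14 (IRF1 and IRF9), the circadian clock 2 of 16 (CLOCK and CSNK1D), MAP kinase phosphatases and regulators 2 of 10 (SPRY1 and MAP3K5) and immediate early genes 1 of 11 (EGR1). The kinases and adaptors had 0 of 12 and the RUNX and NFI factors 0 of 5. TNIP2, CXCL9, CXCL10, BCL10, PMAIP1, FADD, LAMB3 and ZYX had members as their only bound regions in this window. A region in reach of more than 1 gene was counted for each. CXCL9 and CXCL10 shared 1 member, which stood 124400 bp from the next bound region. The other list genes named here with a member also had regions of other patterns. Of the 742 protein-coding genes with a member, 496 had members only.

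Among the survival genes, CFLAR encodes c-FLIP, which blocks caspase 8. Its promoter member had signals of 4.43, 2.87 and 2.13 in HT29 mock, 3.85, 1.88 and 1.77 in HT29 ERβ, 0.700, 0.480 and 0.770 in SW480 mock, and 1.85, 3.76 and 2.56 in SW480 ERβ. PMAIP1, the gene of the pro-apoptotic protein NOXA, had means of 3.29 ± 1.16, 2.00 ± 0.775, 0.902 ± 0.161 and 2.60 ± 0.722 at its promoter in the same group order. A region 34411 bp upstream of XIAP, a caspase inhibitor, had 2.85 ± 1.32, 2.14 ± 1.11, 1.41 ± 0.335 and 3.48 ± 1.85. In all 3 the HT29 groups overlapped, and at CFLAR and PMAIP1 the SW480 groups did not.

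Among the adhesion genes, LAMB3 and LAMA3 encode chains of an epithelial laminin, ITGB6 an epithelial integrin and ZYX the focal adhesion protein zyxin. The LAMB3 promoter had 5.75, 2.77 and 3.14 in HT29 mock, 1.42 to 4.06 in HT29 ERβ, 0.821, 1.53 and 0.829 in SW480 mock, and 1.59, 3.53 and 4.80 in SW480 ERβ. At the ZYX promoter the HT29 mock libraries (2.55 to 3.41) lay above those of HT29 ERβ (0.995 to 2.53) and those of SW480 ERβ (2.21 to 3.92) above those of SW480 mock (1.24 to 1.75), in HT29 by a narrow gap. The ITGB6 and LAMA3 regions had HT29 differences of -0.10 and -0.20 on the log2 scale.

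EGR1, an immediate early transcription factor, was the 1 gene of its list with a member. Its promoter had means of 3.41 ± 1.01, 2.09 ± 1.01, 1.73 ± 0.369 and 4.40 ± 1.47 in HT29 mock, HT29 ERβ, SW480 mock and SW480 ERβ. Members whose nearest start was that of HES1, a Notch target, ATF3, a stress factor, or DUSP1, a MAP kinase phosphatase, lay outside the window used for the lists, and had HT29 differences of -0.29, -0.34 and -0.08 and SW480 differences of 1.11, 0.67 and 0.71. At DUSP1 the HT29 mock libraries ranged from 1.36 to 6.28 and the HT29 ERβ libraries from 1.68 to 5.95.

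The study called its sites with HOMER over input, a rule that differs from the one used here. Of 6 genes that the study names for this pattern, 2 had a member, in the gene or upstream of it, by the rule used here. CLOCK, a core factor of the circadian clock, had one at its promoter (chr4:55546001-55546400), with 5.93, 3.55 and 2.88 in HT29 mock, 4.26, 2.79 and 2.54 in HT29 ERβ, 1.80, 2.46 and 0.799 in SW480 mock, and 2.83, 3.17 and 4.24 in SW480 ERβ. All 3 HT29 ERβ libraries were above the signal minimum, and their input was 0.821, beside 0.587 in HT29 mock. Another region at the CLOCK promoter (chr4:55547001-55547200) was bound in SW480 ERβ alone, with means of 0.919 ± 0.349 in HT29 mock, 1.23 ± 0.407 in HT29 ERβ, 0.993 to 1.21 in the SW480 mock libraries and 2.12 ± 1.16 in SW480 ERβ. CXCL10, a chemokine of interferon and TNFα responses, had one 204 bp upstream (chr4:76023601-76023800), with 3.81, 2.18 and 1.90 in HT29 mock, 3.74, 1.32 and 1.38 in HT29 ERβ, 0.430, 0.410 and 1.60 in SW480 mock, and 1.46, 2.47 and 2.11 in SW480 ERβ. Replicate 1 of both HT29 groups was near the same level, and the other HT29 ERβ libraries were below all HT29 mock libraries.

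The other 4 had regions of other patterns by the rule used here. As the study's own peaks were not used, this does not test its list. RUNX1 had 4 regions, all bound in SW480 ERβ alone, with HT29 mock means of 0.337 to 1.54. TP53I11 had 1 bound in SW480 ERβ and 1 in HT29 mock. In HT29 mock, HT29 ERβ, SW480 mock and SW480 ERβ the means were 2.10, 2.06, 0.639 and 2.16 at the first. At the second they were 3.56, 1.98, 1.02 and 1.54. NFIB had 1 bound in HT29 ERβ and SW480 ERβ, where the HT29 inputs were 0.836 in mock and 0.360 in ERβ. Its means were 3.38 ± 1.86 in HT29 mock, 2.58 ± 0.921 in HT29 ERβ, 0.854 ± 0.377 in SW480 mock and 2.74 ± 1.46 in SW480 ERβ. BMAL2, formerly ARNTL2, had 1 bound in HT29 mock, with means of 4.64 ± 2.30, 3.51 ± 1.31, 2.01 ± 0.799 and 2.87 ± 1.07 in the same group order. JUND, which the study names as a p65-bound regulator and not for this pattern, had no bound region by the rule used here.

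The rule required both bound groups to pass the same limits, which holds their values together, so the comparison between them is a description as well. SW480 ERβ minus HT29 mock had a median of 0.24 on the log2 scale at members and 0.63 over all regions. By limma 68 members were higher in SW480 ERβ (13.2%, beside 46.5% of all regions) and 5 lower (0.973%, beside 10.9%), and 441 were not called. With the libraries scaled at the regions bound in all 4 groups, 46 members were higher (8.95%), beside 2495 of the 6238 regions, and 110 lower (21.4%, beside 21.7%), so this split depends on the scaling. The 68 became 110 without HT29 mock replicate 1 (21.4%, beside 54.6% of all regions) and 108 without SW480 ERβ replicate 1 (21.0%, beside 54.7%). Without HT29 mock replicate 2 or 3 there were 27 or 34 (5.25% or 6.61%, beside 38.7% or 38.8%). Without SW480 ERβ replicate 2 or 3 there were 23 (4.47%, beside 38.0% or 39.1%). The 5 lower were nearest to MYRIP, TMEM161B, SHISA2, CBFA2T3 and CEP192, with differences of -1.05 to -0.78. Without HT29 mock replicate 1 there were 0 lower, and 1 without SW480 ERβ replicate 1, beside 8.35% and 8.93% of all regions. Among the higher, the promoter of NOD2, a sensor of bacterial peptidoglycan, had 1.71 ± 0.640 in HT29 mock, 1.71 in HT29 ERβ, 2.02 in SW480 mock and 7.97 ± 2.22 in SW480 ERβ, a difference of 1.72 on the log2 scale. NOD2 was picked after its values were seen. Line and ERβ status cannot be told apart in this comparison.

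Members close to the signal minimum show how fine the line was. The YES1 and TBC1D30 promoters were members with second highest HT29 mock libraries of 2.004 and 2.006. The regions nearest AURKB and FDXR, which passed the other limits in HT29 mock, stayed outside with second highest values just under 2 and were listed for SW480 ERβ alone. Members were spread over all chromosomes read, at 5.49% to 13.3% of the bound regions of each.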

How the data were processed

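p65 ChIP-Seq libraries of 4 groups (3 ChIP and 1 input library each) were analysed. The authors aligned the reads with STAR to hg38 (GRCh38), made the tracks with HOMER and deposited signal, the coverage per base scaled to a common total. Versions of these tools are not given in the sources used here. Scaling to a common total leaves differences in how much of a library is in peaks within the signal. At the regions bound in all 4 groups median signals ran from 3.72 in HT29 ERβ replicate 3 to 10.8 in SW480 ERβ replicate 2. The tracks do not hold the depth, and the mapped reads per library that the study lists were not used. Because signal is not a count, no count model was used. Local means were taken over 25 bins on either side without the bin itself, a reading of the rule. Regions were annotated with GENCODE release 44. Signal was compared as log2(signal + 1) in limma 3.58.1 (R 4.3.3) over the 12 ChIP libraries and all bound regions, with Benjamini-Hochberg adjustment and a threshold of 0.05. No filter was set beyond the choice of regions. Python 3.11.15, numpy 2.4.6, pandas 2.3.3, scipy 1.17.1, pysam 0.24.0 and matplotlib 3.10.9 were used, and the calling and limma steps were tested on simulated data.

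Replicate numbers come from the labels. Deviations from the group means correlated at 0.234 to 0.585 between same-numbered HT29 libraries and 0.134 to 0.309 in SW480 (other pairs -0.431 to 0.273 and -0.231 to 0.0230), all above 0.1, so a fit with the replicate number as a block is given as well. Intervals of shares are Clopper-Pearson, at 95%.

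Named regions were the 12 members with the highest lower mean of the 2 bound groups, the 6 with the largest lower difference of the 2 lines, up to 14 nearest to list genes by the first measure, the regions of 7 genes named by the study, and 2 to either side of the signal minimum. Members, lists and tests were chosen with earlier results of these data known. The rule was rerun under other limits, inputs, scalings and with libraries left out. Results of some items are not reported here.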

Additional observations from a re-analysis of the deposited data

Results flagged for a closer look

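The difference between ERβ and mock libraries had opposite signs in the 2 lines at the members chosen without the replicate that was read. The SW480 median minus the HT29 median was 0.665 in replicate 1, 1.24 in replicate 2 and 1.10 in replicate 3, on the scale of log2(signal + 1). All 3 pairs of libraries of each line moved the same way, and the difference between the lines was not tested. Over all bound regions of the same choices the HT29 medians were -0.21 to -0.13 and the SW480 medians 0.42 to 0.97, so the opposite signs were found there as well.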

How the results depend on the processing

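The number of members, 514, went to 267 with a signal minimum of 3, 279 with all 3 replicates required, 260 with the other input of the line and 189 with libraries scaled at the regions bound in all 4 groups. It was 324 with the mean of both inputs, which, like the rule without an input limit and the shares by input or scaling, was chosen after seeing the data. Of 12 settings 7 stayed within 1.5 times. Leaving out 1 library or replicate number gave 226 (without HT29 mock replicate 1) to 770 (without HT29 ERβ replicate 1). A group with 2 libraries left had to pass in both, which by itself lowers the number for a bound group and raises it for an unbound group. The HT29 median difference was -0.16 with the scaling at common regions, -0.23 with a pseudocount of 2 and -0.46 with input subtracted, and -0.54 (without HT29 ERβ replicate 1) to -0.15 (without HT29 mock replicate 1) with libraries left out. The SW480 median was 0.29 with that scaling and 1.08 with input subtracted, and 0.67 to 0.98 with libraries left out. The median over the members kept its sign in each line in every setting run. Members were chosen anew under each changed rule, so the choice itself leads to these signs. Over all regions the HT29 median went from -0.15 to 0.01 with that scaling and to 0.02 without HT29 mock replicate 1. The causes were not tested.

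By limma, regions called between SW480 ERβ and mock numbered 1118 of those with a mean of at least 2, a filter that leaves fewer regions, 899 (826 higher and 73 lower) with the scaling at common regions and 1587 (without SW480 ERβ replicate 2) to 4454 (without SW480 ERβ replicate 1) with libraries left out. With the replicate block they numbered 4821, and in HT29 0 with and without the block. HT29 had 0 calls in all settings run. Between SW480 ERβ and HT29 mock 1356 were called under the filter, and 3040 to 3968 with libraries left out. With the scaling at common regions the members called there turned from 68 higher and 5 lower to 46 higher and 110 lower.

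The κB share was 63.6% in the 200-bp bin and 95.3% with 1 mismatch allowed. With the other input it was 75.8%, beside 68.7% of all regions, and with the mean input 76.2%, beside 67.7%. With no input limit it was 70.7%, beside 60.9%. With the scaling at common regions it was 71.4%, beside 69.2%, so members and all regions were closer there. The promoter share was 48.6% with transcripts of all genes, 47.7% with the promoter widened on both sides, 24.2% with the other input, 30.9% with the mean input, 36.0% with no input limit and 43.9% with the scaling at common regions. The tracks do not hold the depth, so no limit of detection could be set for a region without a call.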
